A study of Mus musculus with 219 samples.

Results

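The proteasome subunit genes of the mouse prefrontal cortex were followed through the day, between light cycles, housing sets, sexes and genotypes. They were defined as the protein-coding genes of GENCODE mouse release 21 whose symbols are Psma, Psmb, Psmc or Psmd followed by a number, which gave 39 of the 55487 gene identifiers in each count table. By role they comprised 7 alpha ring genes (Psma1 to Psma7), 7 constitutive beta ring genes (Psmb1 to Psmb7), 6 ATPase genes (Psmc1 to Psmc6), 3 other genes of the base (Psmd1, Psmd2 and Psmd4), 8 lid genes (Psmd3, Psmd6, Psmd7, Psmd8, Psmd11, Psmd12, Psmd13 and Psmd14) and 3 base assembly chaperone genes (Psmd5, Psmd9 and Psmd10). The 5 others were Psma8, a testis form of an alpha subunit, the immunoproteasome genes Psmb8, Psmb9 and Psmb10, and the thymoproteasome gene Psmb11. The 14 alpha and constitutive beta ring genes are called the core particle here, and the 17 base and lid genes the regulatory particle.

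RNA was sequenced from left prefrontal cortex after ribosomal RNA depletion. An atlas of 92 libraries came from wild-type mice (WT/WT, Snord116+/+Ctg-/-) of about 12 weeks of age, housed in home cages on a 24 h day with 12 h each of light and dark (12:12) and collected in the light-dark cycle (L:D) at ZT0, ZT3, ZT6, ZT9, ZT12, ZT15, ZT18 or ZT21, where ZT is the number of hours after lights on. Each time held 6 mice of each sex, or 5 at ZT18 and ZT21. A further 126 libraries, all at ZT6, came from WT/WT mice, from HET/WT mice (Snord116+/-Ctg-/-), from WT/TG mice (Snord116+/+Ctg+/-) and from HET/TG mice (Snord116+/-Ctg+/-). These animals were moved at about 8 weeks of age into incubators at 22 °C, acclimated for 7 days, and entrained for 22 days to 12:12 or to alternating 11 h spans of light and dark (11:11). The running wheel set spent the last 7 of those days with wheels and was collected in L:D. The calorimetry set went into indirect calorimetry chambers after the 22 days and was collected in constant darkness (D:D). Set, apparatus and lighting at collection therefore cannot be told apart. ZT6 is the time given in the labels. In constant darkness no lights came on that day, and 6 h is a different part of a 22 h day than of a 24 h day. A difference in clock phase at collection therefore cannot be told apart from a difference between light cycles or sets. There were 4 libraries for every genotype of each sex on each light cycle in each set, or 3 in 2 groups of WT/TG males. The sources used here do not say what the Ctg transgene holds or what drives it.

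The proteasome is the protease that degrades ubiquitin-tagged proteins in the cytosol and nucleus. Its core particle is a barrel of alpha and beta rings, with the proteolytic sites inside on 3 of the constitutive beta subunits, Psmb5, Psmb6 and Psmb7. The regulatory particle caps the barrel: the ATPase ring of its base unfolds the substrate and opens the gate of the alpha ring, Psmd4 in the base binds ubiquitin chains, and Psmd14 in the lid removes them. Interferon exchanges the catalytic subunits for Psmb8, Psmb9 and Psmb10, which favour peptides for antigen presentation. In neurons the proteasome is known for its part in the turnover of synaptic proteins.

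Total counts per library ran from 12.9955 to 18.4 mega-counts in the atlas and from 12.7 to 29.9 mega-counts at ZT6. Markers fixed for excitatory and inhibitory neurons, glia, endothelium, striatal neurons, choroid plexus and blood cells were detected in every group, so the dissected tissue held RNA of all of these, and in such bulk samples fewer cells of a type and less RNA per cell cannot be told apart. Snhg14, the host transcript of the Snord116 RNAs, had a median of 188 CPM (counts scaled to a common library size) in the WT/WT libraries at ZT6 (116 to 281) and 185 in WT/TG (139 to 218), against 33.2 in HET/WT (20.8 to 167) and 32.8 in HET/TG (20.2 to 69.3). The value of 167 CPM belonged to 1 running wheel female library labelled HET/WT on 11:11, without which HET/WT reached 54.3 CPM. A running wheel female WT/TG library held 58.4% of its counts in ribosomal RNA genes. Without either library the counts of genes called below differed by less than 1.5 times. In each library the slope over genes of log2 CPM (relative to its mean over libraries) on log2 exonic length was taken, and is called the length slope. It was meant as a stand-in for RNA quality, but was not checked against a direct measure of it. Whether cell composition moves the slope was not tested. The length slope averaged -0.071 in calorimetry males, -0.008 in calorimetry females, 0.069 in running wheel females and 0.008 in running wheel males. In the atlas its mean ran from -0.015 at ZT6 to 0.014 at ZT21.

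The levels of the subunits were first compared per kilobase of exonic length, since reads scale with length. In the atlas the median level was 17.9 CPM per kb for the core particle and 18.4 CPM per kb for the regulatory particle. The alpha ring ran from 14.3 CPM per kb (Psma1) to 39.6 (Psma6), with a median of 16.3. The beta ring ran from 13.3 CPM per kb (Psmb3) to 36.2 (Psmb4), with a median of 21.1. The ATPases stood highest, from 13.04 CPM per kb (Psmc2) to 67.9 (Psmc5), with a median of 30.5. In the rest of the base the level was 44.9 CPM per kb for Psmd2, a scaffold of the base, 19.3 for Psmd4 and 12.3 for Psmd1. The lid ran from 10.4 CPM per kb (Psmd11) to 25.9 (Psmd7), with a median of 15.9. The base assembly chaperones lay below every subunit of either particle, at 6.50 CPM per kb for Psmd10, 4.83 for Psmd5 and 2.24 for Psmd9. The highest and lowest members of the core particle differed 2.98-fold and those of the regulatory particle 6.51-fold. Per kilobase of the longest coding transcript the latter fold was 3.28 and the particles' medians were 34.9 and 34.4 CPM per kb, so the spread within the regulatory particle depends on which length is used.

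The exchange subunits differed among themselves more than the constitutive ones did. Psmb10 stood at 10.8 CPM per kb, Psmb8 at 0.434 and Psmb9 at 0.177, which made Psmb10 the exchange subunit nearest in level to the core genes. Psma8 at 0.108 CPM per kb and Psmb11 at 0.0373 CPM per kb were the lowest. They held 381 and 254 reads over all 92 atlas libraries and did not pass the filter on low counts there. At ZT6 only Psmb11 failed it. Thus 37 of the 39 genes were tested in the atlas and 38 at ZT6, out of 17193 and 18841 genes.

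**Figure D1:**
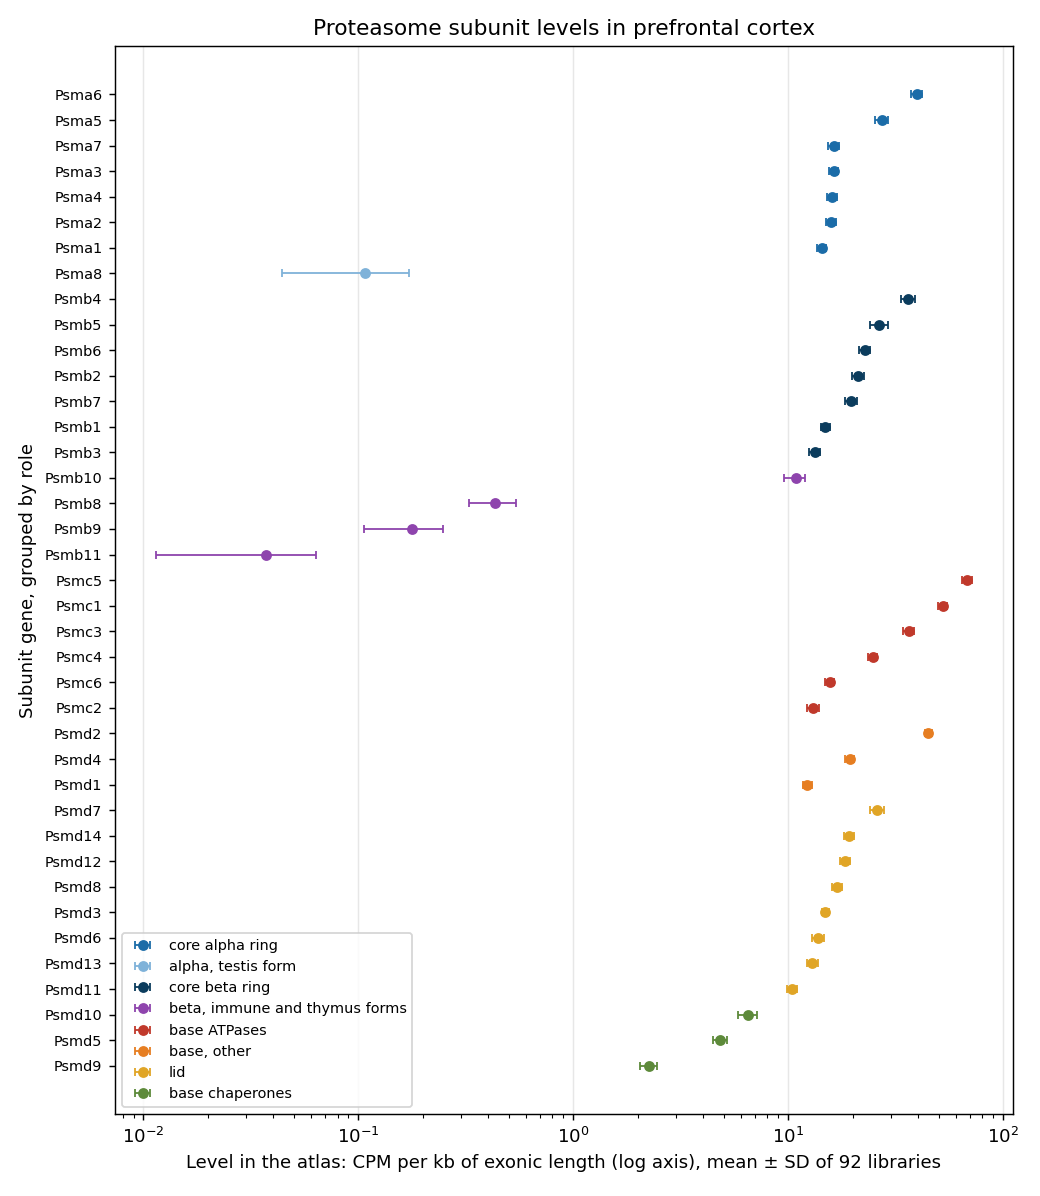
Level of each proteasome subunit gene in the atlas, in CPM per kb of exonic length on a log axis, as the mean with the SD of 92 libraries, grouped by role. Psmc5 (67.9), Psmc1 (52.4) and Psmd2 (44.9) lead, the chaperones sit below the subunits, and Psmb8, Psmb9, Psma8 and Psmb11 lie below 1.

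The sequences upstream of the genes are given for some members, with and without a match to the motif below, to show what such proximal promoters hold. The printed sequences do not stand for the share of members with a match, which follows them. They come from RefSeq on GRCm38.p6, the 250 bases before the annotated start on the strand of the gene. Of the 39 members 32 were searched. Psma8, Psmb1, Psmb2, Psmb7, Psmc3, Psmd3 and Psmd7 were not among them. Capitals mark the motif TGACNNNGC, the shared letters of the antioxidant response element bound by the Cap'n'collar factors Nfe2l1 and Nfe2l2 with small Maf proteins, on either strand. Psmb6 (chr11:70525107-70525356, plus strand), a catalytic beta subunit, and Psmd12 (chr11:107479278-107479527, plus strand), a lid subunit, each held a match. Psmc4 (chr7:28050093-28050342, minus strand), an ATPase, and Psmb9 (chr17:34187331-34187580, minus strand), an immunoproteasome subunit, held none.
Psmb6: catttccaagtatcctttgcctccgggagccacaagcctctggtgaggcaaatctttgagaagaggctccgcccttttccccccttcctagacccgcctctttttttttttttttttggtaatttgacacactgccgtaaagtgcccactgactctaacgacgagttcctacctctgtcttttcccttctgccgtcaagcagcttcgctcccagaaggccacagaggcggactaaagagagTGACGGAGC
Psmd12: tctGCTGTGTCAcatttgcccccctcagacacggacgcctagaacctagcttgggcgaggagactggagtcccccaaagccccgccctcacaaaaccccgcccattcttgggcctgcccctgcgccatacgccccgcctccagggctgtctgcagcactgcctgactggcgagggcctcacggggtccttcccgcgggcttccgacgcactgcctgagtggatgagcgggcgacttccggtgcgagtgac
Psmc4: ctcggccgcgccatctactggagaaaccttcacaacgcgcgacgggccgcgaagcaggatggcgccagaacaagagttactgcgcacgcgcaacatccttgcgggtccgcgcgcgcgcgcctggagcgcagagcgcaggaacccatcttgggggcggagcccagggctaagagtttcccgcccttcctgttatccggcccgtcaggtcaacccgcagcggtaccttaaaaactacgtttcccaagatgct
Psmb9: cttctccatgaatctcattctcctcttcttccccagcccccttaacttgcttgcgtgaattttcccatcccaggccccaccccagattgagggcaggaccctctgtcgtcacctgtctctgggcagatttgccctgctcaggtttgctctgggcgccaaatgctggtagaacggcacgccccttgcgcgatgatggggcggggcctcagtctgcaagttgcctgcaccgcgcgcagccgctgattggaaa

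The motif was found upstream of 5 of the 32 genes (Psmb5, Psmb6, Psmc6, Psmd9 and Psmd12), or 15.6%, beside 10.2% of the 32851 promoters of the same table and upstream length. Genes with more than a single promoter (Psma6 and Psmc2) counted once if any matched, whereas the share over the table is per promoter. CCAAT, searched on both strands, lay in 13 (40.6%, beside 33.9% of all), the E-box CACGTG bound by the clock factors in 3 (Psma4, Psmb10 and Psmd9; 9.38%, beside 6.02%), GCATGC in 5 (15.6%, beside 6.70%) and the D-box TTATGTAA in none (beside 0.819% of all). The motifs do not contain one another. Among the ATPase and other base genes searched, which left out Psmc3, no promoter held CACGTG or TTATGTAA in this window.

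The atlas asked which subunit genes change with the time of day. A daily rhythm of small amplitude was called for 12 of 17 genes of the regulatory particle, 11 of them with fitted peaks between ZT12 and ZT20, and for 2 of 14 genes of the core particle. The regulatory count fell to 8 without the expression filter, with time as a factor or with a length slope term. It fell to 5 to 7 without the animals numbered 1, 2 or 3. These shares are near or below the 41.4% of all genes called in the fit reported here. The share of all genes under each of those other settings is not given here. Of the 37 genes tested 18 were called rhythmic (edgeR quasi-likelihood test of a 24 h cosine and sine, Benjamini-Hochberg adjusted p under 0.05), beside 41.4% of all genes tested, so the count over the whole family was near the background. By subcomplex the calls were 8 of 9 in the base, 4 of 8 in the lid and 2 of 3 among the chaperones. The median peak-to-trough fold of the 37 was 1.05, beside 1.10 over all genes tested.

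Psmc3 (ENSMUSG00000002102, chr2:91054009-91066369, plus strand), an ATPase, had the smallest p of the family. Its median level was 93.8 CPM at ZT0, 89.5 at ZT3, 93.3 at ZT6, 94.3 at ZT9, 91.5 at ZT12, 99.0 at ZT15, 96.3 at ZT18 and 97.1 at ZT21. The 12 libraries at ZT3 spanned 84.8 to 98.0 CPM and the 12 at ZT15 spanned 94.3 to 119.5, so that the lowest library of ZT15 lay above the median of ZT3 while the ranges overlapped. The fitted fold was 1.08 (95% interval 1.05 to 1.11), with the peak at ZT17.1 and an adjusted p of 9.34e-05. Psmc3 overlaps Slc39a13 on the opposite strand, and since the strand setting of the counting is not given, reads of the pair cannot be told apart.

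Psmc4 (ENSMUSG00000030603, chr7:28041707-28050101, minus strand), whose promoter is printed above, ran from 49.0 to 54.5 CPM at ZT3 (median 51.6) and from 52.9 to 60.6 at ZT15 (median 55.9). Its fold was 1.06 (95% interval 1.04 to 1.09), with the peak at ZT17.8 (adjusted p 0.000418). The ranges of the 2 times overlapped only between 52.9 and 54.5 CPM. Among the other ATPases the fold was 1.06 for Psmc2 (peak ZT13.7, adjusted p 0.00324), 1.04 for Psmc1 (ZT18.0, 0.0401) and 1.05 for Psmc5 (ZT17.7, 0.0410). Psmc6, the remaining ATPase, had a fold of 1.01 and an adjusted p of 0.829.

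The 3 other base genes were all called. Psmd4, the ubiquitin receptor, had a fold of 1.05 with a peak at ZT15.6 (adjusted p 0.00534), Psmd1 1.05 at ZT14.1 (0.0107) and Psmd2 1.04 at ZT17.1 (0.0408). Psmd4 stood at a median of 53.3 CPM at ZT3 and 57.9 at ZT15. The base genes that were called thus peaked between ZT13.7 and ZT18.0, all in the dark phase.

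In the lid, Psmd13 had a fold of 1.06 (peak ZT15.1, adjusted p 0.00803), Psmd7 1.06 (ZT18.7, 0.0322), Psmd12 1.05 (ZT17.6, 0.0482) and Psmd8 1.05 (ZT24.0, 0.0145). Psmd3, with 1.01, had the smallest fold of the lid, and Psmd14, the deubiquitinase, was not called (1.03, adjusted p 0.155). Of the chaperones, Psmd5 reached 1.08 (95% interval 1.04 to 1.12, ZT19.0, 0.00428) and Psmd10 1.10 (1.04 to 1.17, ZT20.4, 0.0205), whereas Psmd9 was not called (1.03, 0.595). In the 12 libraries of each time, Psmd10 had a median of 9.06 CPM at ZT6 and 10.1 at ZT15.

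The core particle had 2 calls, of opposite phase. Psma7, an alpha ring subunit, had a fold of 1.05 with a peak at ZT13.2 (adjusted p 0.0208). Psmb6, a catalytic beta subunit, had a fold of 1.06 with a peak at ZT2.33 (0.0136). The smallest folds of the family were those of Psmb1 and Psmb4, both 1.01 (adjusted p 0.896 and 0.936), with upper bounds of the 95% interval of 1.03 and 1.05. Whether the particles differ in rhythm was not tested.

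**Figure D2:**
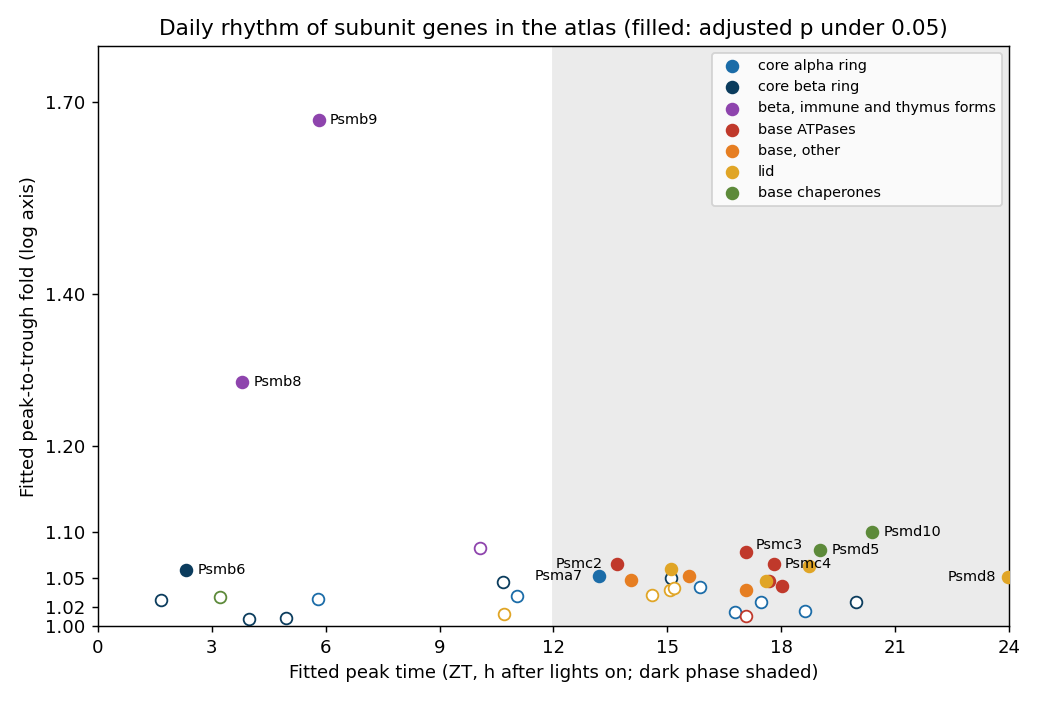
Fitted peak time (ZT, dark phase shaded) against fitted peak-to-trough fold (log axis) for the 37 genes tested in the atlas, coloured by role and filled where the adjusted p was under 0.05. The called base genes lie between ZT13.7 and ZT18.0 with folds of 1.04 to 1.08, while Psmb8 (1.28) and Psmb9 (1.67) stand apart in the light phase.

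Peaks between ZT12 and ZT20 were fitted for 13 of the 18 called members (72.2%), beside 32.2% of all genes called rhythmic. Whether this window was fixed before the peaks were seen is not stated here, and it holds every called base peak. The members also vary together within groups, so their peaks are not independent. The difference between these shares was not tested and was not read as particular to the subunits. In the mean over the base genes, the log2 level relative to the atlas mean was -0.0445 ± 0.0432 (SD, n = 12) at ZT3 and 0.0546 ± 0.0445 at ZT15. At ZT12 it was -0.0208 ± 0.0514, so the highest time mean followed a low one by 3 h. The lid mean was highest at ZT15 too, at 0.0434 ± 0.0395. The core mean stayed between -0.0248 (ZT12) and 0.0227 (ZT15), with an SD over libraries of up to 0.0645 at a time. The call of the regulatory particle rested in part on ZT15: without that time 3 of its 17 genes and no core gene were called, and without ZT3 6 of 17. Females alone gave 3 and males alone 4. The share of all genes called in each of these smaller fits is not given here.

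**Figure D3:**
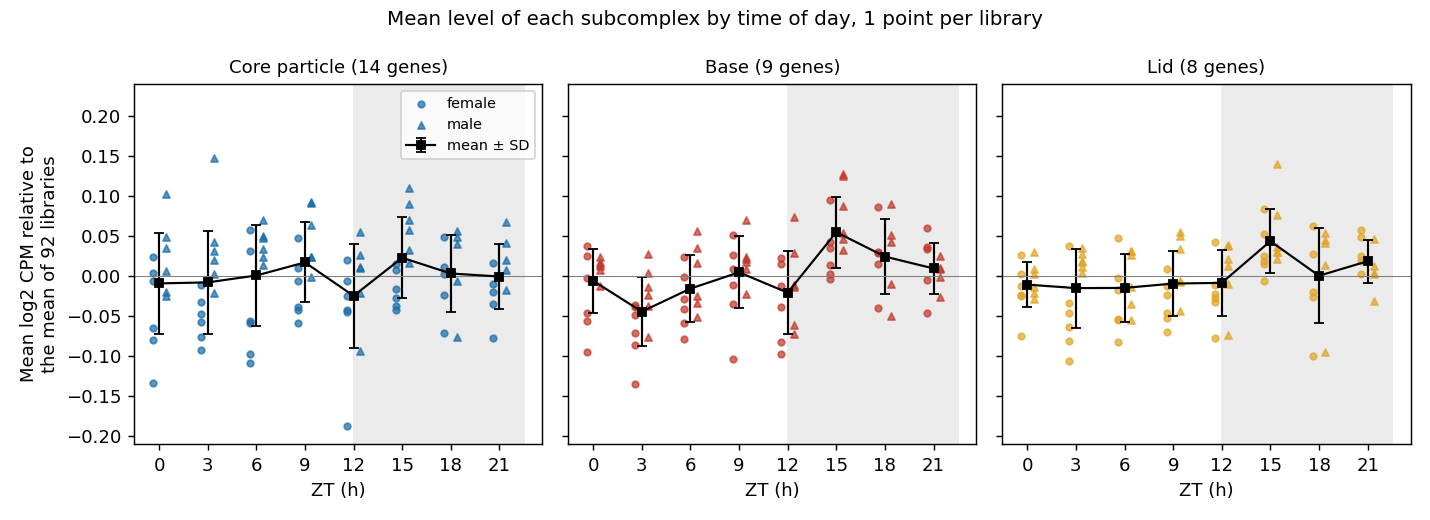
Mean log2 CPM of the core, base and lid genes relative to the mean of 92 libraries, by ZT, 1 point per library (circles females, triangles males), with the mean ± SD of each time in black. The base is lowest at ZT3 (-0.0445) and highest at ZT15 (0.0546), and the core means stay within -0.0248 and 0.0227.

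With the length slope as a covariate 8 of 17 regulatory and 3 of 14 core genes were called. Marker genes also moved with time: all 6 endothelial markers, 5 of 6 astrocyte markers and 5 of 6 microglial markers were called rhythmic, beside 41.4% of all genes tested. The summed endothelial markers had a median of 186.8 CPM at ZT3 and 199.1 at ZT15, and the microglial ones 201.5 and 179.7. Their part in the rhythm of the subunits was not tested.

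The immunoproteasome genes Psmb8 and Psmb9 had the largest folds and peaked in the light phase. Psmb9 (ENSMUSG00000096727, chr17:34181987-34187764, minus strand) spanned 0.457 to 1.08 CPM at ZT6 (median 0.807) and 0.127 to 0.979 at ZT15 (median 0.497). Its fitted fold was 1.67 (95% interval 1.33 to 2.10), with the peak at ZT5.82 (adjusted p 0.000514). The ranges overlapped widely, and the gene held 924 reads over all 92 libraries. Psmb8 (ENSMUSG00000024338, chr17:34197721-34201454, plus strand) spanned 1.25 to 2.27 CPM at ZT3 (median 1.69) and 0.816 to 1.69 at ZT18 (median 1.22), with a fold of 1.28 (1.11 to 1.48), a peak at ZT3.80 and an adjusted p of 0.0108. Psmb10, the third exchange subunit and far more abundant, had a fold of 1.08 (1.02 to 1.15) and was not called (adjusted p 0.0883). Psmb9 overlaps Tap1, a peptide transporter gene of the same locus, on the opposite strand, and Tap1 had a fold of 1.41 with a peak at ZT5.0 (adjusted p 0.00038), so reads of Psmb9 and Tap1 cannot be told apart.

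A sex difference in rhythm was called for 0 of the 37 genes by edgeR (beside 0.0756% of all genes) and for 0 by DESeq2. None had an unadjusted p under 0.05, the smallest being 0.0553 for Psma1 and 0.0571 for Psmb1.

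Other genes of the pathway were read from lists fixed with the members. The counts of called genes stand beside 41.4% of all genes tested. Whether any list differs from that share was not tested. Nfe2l1, which induces proteasome genes when proteolysis is short, had a fold of 1.04 with a peak at ZT16.6 (adjusted p 0.0105), close in time to the base genes. In its list 5 of 8 were called, among them Ddi2, the protease that activates Nfe2l1 (1.11, ZT18.3, 6.9e-05), Mafg (1.16, ZT19.0, 2.38e-07) and Nfe2l2 (1.13, ZT16.6, 0.00748). Among activators and inhibitor of the core particle 3 of 5 were called, and they peaked earlier: Psmf1, an inhibitor, 1.24 at ZT9.8 (7.53e-17), Psme4 1.18 at ZT10.1 (4.75e-08) and Psme1 1.11 at ZT4.2 (0.0353). None of the 5 assembly factors tested was called. Of the bound enzymes and ubiquitin shuttles 7 of 12 were called, led by Zfand5 (1.12, ZT11.2, 4.14e-09) and Usp14, the deubiquitinase of the base (1.06, ZT13.7, 0.00316). Of the ubiquitin and activating enzyme genes 4 of 8 were called, with Uba6 the largest (1.26, ZT19.2, 1.95e-12), and of Vcp and its cofactors 3 of 6, with Faf2 the clearest (1.06, ZT22.8, 0.00356). The antigen presentation list had 4 of 10, of which Tap2 (1.15, ZT3.4, 0.0137) and Tapbp (1.09, ZT4.7, 0.00686) peaked in the light phase like Psmb8 and Psmb9, and Ifit3 in the dark (1.42, ZT13.8, 3.22e-06). Adrm1, a ubiquitin receptor of the base whose symbol falls outside the rule for members, had a fold of 1.06 with a peak at ZT13.3 (0.014).

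In the atlas the core particle was higher in males than in females by a small amount. Of the 37 genes 18 were higher in males, beside 21% of all genes tested, and 0 were lower, beside 20.1%. They included 11 of 14 core genes and 5 of 17 regulatory genes, and the median difference was 0.07 on the log2 scale in the core and 0.02 in the regulatory particle. Psmb4, a beta ring subunit, spanned 57.9 to 76.2 CPM in females (median 68.1, n = 46) and 63.5 to 89.2 in males (median 72.5, n = 46). The ranges overlapped, and the difference was 0.12 ± 0.019 (log2, SE; edgeR adjusted p 3.61e-07). Psmb7 differed by 0.09 ± 0.017 (1.06e-05) and Psmb1 by 0.06 ± 0.013 (3e-05). Psma5 (0.09), Psma2, Psma6 and Psmb3 (0.07 each) and the lid gene Psmd14 (0.07) followed. Striatal neuron markers were lower in males, 6 of 6, with summed levels of 117 to 1180 CPM in females and 93.7 to 407 in males, and blood markers higher, 6 of 6, with 57.9 to 163 CPM and 85.6 to 540. Their part in the sex difference was not tested.

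At ZT6 the comparison of the light cycles asked whether entrainment to a 22 h day in place of 24 h is seen in the cortex. In the calorimetry set 8 of the 14 core genes fell on 11:11 (5 once the length slope was a covariate), and the largest falls among them were those of Psmb6, Psma7 and Psma5. Of 38 genes tested 12 were lower on 11:11 than on 12:12, beside 9.13% of all genes, and 2 were higher, beside 10.4%. The 12 lower genes comprised these 8, 2 of 17 regulatory genes (Psmc6 and Psmd8), the chaperone Psmd10 and the immunoproteasome gene Psmb10. Of the core genes not called, Psma1 had means of 50.4 CPM on 12:12 and 50.9 on 11:11, and Psmb2 of 23.5 and 24.5. The median difference was -0.08 in the core particle, 0.02 in the regulatory particle and -0.01 over all genes tested.

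Psmb6 (ENSMUSG00000018286, chr11:70525367-70527858, plus strand), whose promoter is printed above, spanned 41.8 to 49.7 CPM in calorimetry females on 12:12 (median 44.7) and 33.8 to 44.3 on 11:11 (median 40.1). In calorimetry males it spanned 66.5 to 100.7 on 12:12 (median 78.4) and 50.9 to 70.6 on 11:11 (median 64.3). In both sexes the medians were lower on 11:11 and the ranges overlapped at their edges. The difference was -0.25 ± 0.034 (log2, SE; edgeR adjusted p 1.99e-08).

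Psma7 (ENSMUSG00000027566, chr2:180036374-180042433, minus strand) had medians of 46.7 CPM on 12:12 and 41.2 on 11:11 in calorimetry females, and 86.8 and 71.2 in calorimetry males, a difference of -0.23 ± 0.035 (4.52e-07). Psma5, another alpha subunit (ENSMUSG00000068749, chr3:108256926-108279974, plus strand), had medians of 39.8 and 36.1 CPM in females and 62.8 and 53.6 in males, a difference of -0.21 ± 0.033 (5.67e-07). The other core genes that fell were Psma6 (-0.14 ± 0.032, 0.000735), Psmb4 (-0.13 ± 0.036, 0.00538), Psmb1 (-0.08 ± 0.025, 0.00787), Psma3 (-0.11, 0.0152) and Psma2 (-0.08, 0.0373).

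Outside the core, Psmd10, also known as gankyrin, an assembly chaperone of the base (ENSMUSG00000031429, chrX:140948429-140956728, minus strand), fell by 0.24 on the log2 scale (SE 0.048, adjusted p 7.77e-05). It spanned 9.33 to 12.6 CPM on 12:12 and 7.93 to 11.4 on 11:11 in calorimetry females, and 14.7 to 31.8 and 10.5 to 24.4 in calorimetry males. Psmb10 fell by 0.19 (SE 0.044, adjusted p 0.000644), and Psmc6 by 0.09 (0.0101). The genes that rose were Psmd11, a structural subunit of the lid (0.11 ± 0.024, 0.000304), and the chaperone Psmd5 (0.10 ± 0.032, 0.0234). Psmd11 had medians of 66.3 CPM on 12:12 and 70.8 on 11:11 in calorimetry females, and 59.5 and 63.9 in males.

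In the running wheel set 0 of 38 genes were called by edgeR (beside 0.069% of all genes) and 0 by DESeq2, with 4 at an unadjusted p under 0.05 and none of those in the core. The 2 smallest p were those of Psmc3 (0.06, p 0.0351, adjusted p 0.635) and Psmd7 (0.06, p 0.0428). Psmb6 had medians of 38.5 CPM on 12:12 and 38.05 on 11:11 in running wheel females, and 41.4 and 41.7 in males. The light cycle effect differed between the sets, tested as an interaction, for 5 genes with a more negative effect in calorimetry (beside 2.58% of all genes) and for none with a more positive one (beside 2.74%). These were Psma7 (-0.23 ± 0.050, adjusted p 0.00168), Psma5 (-0.21 ± 0.047, 0.00224), Psmb6 (-0.22 ± 0.049, 0.00258), Psmd10 (-0.24 ± 0.068, 0.0196) and Psma6 (-0.16 ± 0.046, 0.0226). Without the animals numbered 4, 1 gene was called, and the share of all genes in that fit is not given here.

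**Figure D4:**
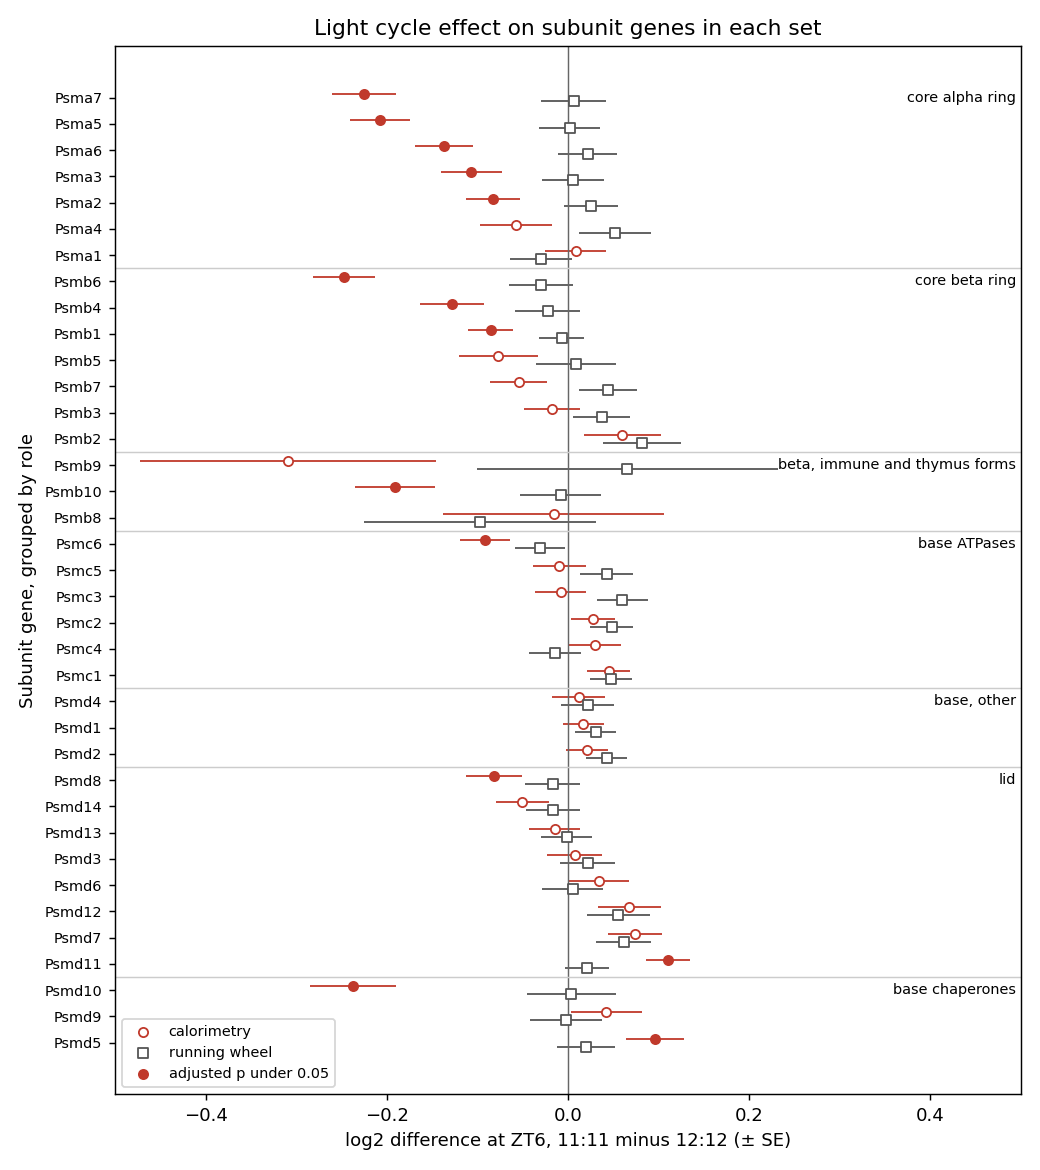
Difference between 11:11 and 12:12 at ZT6 (log2, ± SE) for each subunit gene in the calorimetry and running wheel sets, grouped by role, filled where the adjusted p was under 0.05 and without Psma8. In calorimetry the core genes lie mostly to the left, down to -0.25 for Psmb6, and no gene of the running wheel set is filled.

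Averaged over both sets, 7 genes were lower (beside 5.15% of all genes) and 2 higher (beside 7.49%). Psmb6 (-0.14 ± 0.024, adjusted p 1.95e-05), Psma5 (-0.10 ± 0.023, 0.00105), Psma7 (-0.11 ± 0.025, 0.0012), Psmd10 (-0.12, 0.013), Psmb10 (-0.10, 0.0227), Psmc6 (-0.06, 0.0246) and Psmb4 (-0.08, 0.0344) were lower, and Psmd11 and Psmd7 (0.07 each, 0.00451 and 0.0217) higher. Within calorimetry females 10 were lower (beside 5.62%) and 1 higher (beside 6.69%), led by Psma7 (-0.19, 0.00429), Psmb6 (-0.18, 0.00573) Psma5 (-0.17, 0.00746), Psma6 (-0.16, 0.0114), Psmb10 (-0.21, 0.014), Psmb1 (-0.12, 0.0156), Psmb4 (-0.15, 0.0366) and Psma2 (-0.12, 0.0379), with Psmd11 (0.12, 0.011) the higher one. In these females 1 gene was called when the length slope was a covariate (beside 902 of all 18841 genes). Without the animals numbered 2, 1 gene was called too, and the share of all genes in that fit is not given here. Over both sets the covariate gave 3 calls (beside 840 of all 18841 genes). Within calorimetry males 4 were lower (beside 6.33%), namely Psmb6 (-0.31, 2.49e-06), Psma5 (-0.25), Psma7 (-0.26) and Psmd10 (-0.28), and Psmd11 (0.10) was higher (beside 7.18%). The effect was not shown to differ between the sexes in calorimetry, where 0 genes were called by edgeR (beside 3.91% of all genes) and 0 by DESeq2 for the interaction, 6 had an unadjusted p under 0.05, and the smallest p were those of Psmb3 (0.14, adjusted p 0.195) and Psmd6 (0.14, 0.254). Within running wheel females 0 were called (beside 0.276%; 8 at an unadjusted p under 0.05, all of the regulatory particle, Psmc2 at 0.11 with p 0.00147 and adjusted p 0.117, and Psmc3 at 0.11 with adjusted p 0.253; DESeq2 called 1), and within running wheel males 0 (beside 0%; DESeq2 called 0 and none had an unadjusted p under 0.05, the smallest being those of Psma4 at 0.10 and Psmd8 at -0.06).

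The length slope also differed with the light cycle in calorimetry, averaging -0.022 on 12:12 and 0.006 on 11:11 in females and -0.079 and -0.063 in males. With it as a covariate 8 genes were called in calorimetry in place of 14, 1 higher and 7 lower, of which 5 were core genes: Psmb6 at -0.19, Psma7 at -0.16, Psma5 at -0.18 and Psma6 at -0.13 were among them, with Psmd10 at -0.22, Psmb10 at -0.15 and Psmd11 at 0.08. The interaction with the set kept the same 5 calls under this covariate. Over all 18841 genes tested the covariate gave 2348 calls in calorimetry, in place of 1964 higher and 1720 lower. For the interaction it gave 841, in place of 516 higher and 487 lower. Blood markers were lower on 11:11 in calorimetry, 4 of 6, with summed levels of 68.5 to 377 CPM on 12:12 (median 168) and 44.3 to 281 on 11:11 (median 93.6). The part of the blood markers was not tested.

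The other genes of the pathway were read beside the 10.4% of all genes that were higher and the 9.13% that were lower on 11:11 in calorimetry. Of the activators and inhibitor 1 of 5 was called, Psme2 (lower, -0.19). Of the assembly factors 2 of 5 were lower, Psmg4 (-0.31) and Pomp (-0.14), the maturation factor of the beta ring. Of the genes that control proteasome transcription 2 of 8 were higher, Nfe2l2 (0.28) and Mafg (0.11), while Nfe2l1 stood at 0.01 and was not called. Among the ubiquitin and activating enzyme genes Uba6 (0.24) was higher and Rps27a (-0.28), which encodes ubiquitin fused to a ribosomal protein and has near-identical copies, was lower. One of 12 shuttles and enzymes was higher (Ecpas, 0.06), 1 of 10 antigen presentation genes was lower (Tap1, -0.40), and none of the 6 genes of Vcp and its cofactors and neither Adrm1 nor Sem1 was called. The effect differed between the sets for Psme2 (-0.20), Psmf1 (-0.16), Mafg (0.16) and Uba6 (0.23).

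The sets themselves differed more than the light cycles. On 12:12 the core particle was higher in the calorimetry set than in the running wheel set for 14 of 14 genes, by a log2 difference of 0.25 to 0.65 with a median of 0.48, while the regulatory particle had a median of 0.11 and all genes tested one of -0.01. Of the 38 genes 27 were higher, beside 25.3% of all genes, and 3 lower, beside 27.8%. The smallest p were those of Psma6 (0.65 ± 0.032, adjusted p 1.77e-36), Psmb1 (0.46 ± 0.025, 7.1e-34), Psma7 (0.65 ± 0.036, 1.38e-33), Psma3 (0.56, 3.16e-30), Psmb7 (0.51, 1.54e-28), Psma2 (0.48, 1.6e-28), Psmb6 (0.54, 6.65e-28) and Psma5 (0.49, 1.01e-26). Lower were Psmd11 (-0.14, 5.15e-07), Psmd3 (-0.11, 0.00141) and Psmd5 (-0.09, 0.0175). On 11:11 the counts were 27 higher (beside 24.1%) and 3 lower (beside 24.9%), with a core median of 0.36, the core again 14 of 14 higher, led by Psmb1 (0.38, 2.88e-27), Psma6 (0.49, 1.23e-26), Psma3 (0.45, 4.7e-23), Psmb7 (0.41), Psma2 (0.37), Psma7 (0.42), Psmb3 (0.36) and Psmd14 (0.33), and with Psmd3 (-0.12), Psmd2 (-0.07) and Psmd1 (-0.05) lower. Psma8, with 665 reads over the 126 libraries, was among the higher ones on 11:11 (0.66 ± 0.278, adjusted p 0.039), where 1 library, a calorimetry male HET/TG with 33.5% of its counts in ribosomal RNA genes, held 4.41 CPM and the next highest library at ZT6 0.889. Without it the difference was 0.43 ± 0.260 and was not called (adjusted p 0.170).

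Averaged over the sets, males had more core particle RNA than females at ZT6. Of the 38 genes 29 were higher in males (beside 27.6% of all genes) and 3 lower (beside 30.5%), with 14 of 14 core genes higher, at a median log2 difference of 0.36, and medians of 0.09 in the regulatory particle and -0.01 over all genes tested. The smallest p were those of Psma6 (0.44 ± 0.023, adjusted p 1.44e-35), Psma7 (0.48 ± 0.025, 4.96e-35), Psmb1 (0.33, 1.58e-34), Psmb7 (0.41, 2.61e-33), Psmb3 (0.39, 7.89e-33), Psmb6 (0.43, 1.36e-32), Psmb5 (0.51, 6.04e-30) and Psma3 (0.37, 2.62e-28). Lower were Psmd1 (-0.09, 9.19e-07), Psmd11 (-0.05, 0.0043) and Psmd5 (-0.05, 0.0426).

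The sex difference depended on the set. Psma7 spanned 62.0 to 109.5 CPM in calorimetry males (median 80.4), 36.9 to 55.0 in calorimetry females (median 43.8), 29.9 to 52.1 in running wheel males (median 41.9) and 34.01 to 48.3 in running wheel females (median 38.997), so no library of the 3 other groups reached the lowest calorimetry male. Psmc5, an ATPase, spanned 99.2 to 143 CPM in calorimetry males and 73.3 to 91.9 in calorimetry females. In the calorimetry set 31 genes were higher in males (beside 29%) and 3 lower (beside 34.1%), with Psma7 at 0.85 ± 0.035 (adjusted p 6.54e-44) and Psmb6 at 0.73. In the running wheel set 17 were higher (beside 17.9%) and 5 lower (beside 15.9%), with Psma1 at 0.41 and Psmd2 at -0.16. Psma5 was the only core gene with a lower mean in running wheel males (35.1 CPM) than in running wheel females (36.5). The interaction was called for 27 genes with a more positive difference in calorimetry (beside 22.7%) and 5 with a more negative one (beside 29.1%). Psma7 (0.74 ± 0.050, 5.66e-26), Psma5 (0.66), Psmb6 (0.59), Psmc5 (0.55) and Psmd10 (0.74) were among the former, and Psma1 (-0.30) and Psmd11 (-0.18) among the latter.

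These differences moved with the length slope. The mean log2 level of the core particle relative to the mean of all libraries was 0.453 ± 0.099 (SD, n = 31; range 0.269 to 0.623) in calorimetry males, -0.043 ± 0.093 in calorimetry females, -0.300 ± 0.079 in running wheel females and -0.099 ± 0.127 in running wheel males, and the length slope was lowest in the first and highest in the third of these groups. The regulatory particle stood at 0.121 ± 0.076 in calorimetry males and between -0.044 and -0.037 in the other 3 groups. Over the 31 genes of both particles the Spearman correlation of the difference with the length of the longest coding transcript was taken. It was -0.69 for sex, -0.57 for set on 12:12 and 0.27 for the light cycle in calorimetry, with genes measured in the same libraries. With exonic length, on which the length slope is defined, the correlations were weaker, at -0.45, -0.36 and 0.12. With the length slope as a covariate 19 genes were called for the set on 12:12 (12 of 14 core genes), 18 on 11:11 and 18 for sex (13 of 14 core genes), all of them higher. Over all 18841 genes tested the covariate also lowered the calls, to 5430, 6181 and 5306, of which 2869, 3177 and 2775 were higher. Under it Psmd5 on 12:12, Psmd1 on 11:11, and Psmd11 and Psmd5 for sex turned from lower to a positive value. Blood markers also were higher in calorimetry males, with summed levels of 110 to 377 CPM beside 44.3 to 168 in calorimetry females, and 6 of 6 were called there. The summed oligodendrocyte markers had a median of 4400 CPM in calorimetry males (3187 to 6205), beside 3163 in calorimetry females, 3031 in running wheel females and 3022 in running wheel males. Excitatory neuron markers had medians of 5502 CPM in calorimetry males and 4518 in calorimetry females, 5017 in running wheel females and 4416 in running wheel males. The part of these cell types in the differences was not tested.

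**Figure D5:**
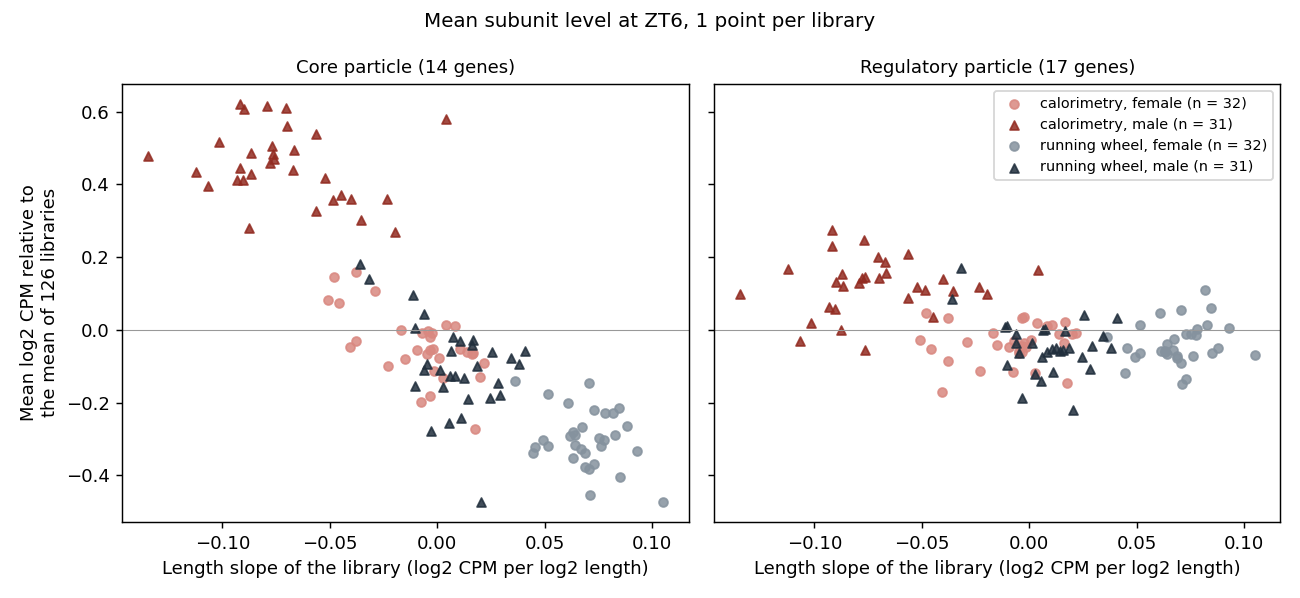
Mean log2 CPM of the core particle (left) and of the regulatory particle (right) relative to the mean of 126 libraries at ZT6, against the length slope of the library, 1 point per library by set and sex. Calorimetry males (core 0.269 to 0.623) lie at the lowest slopes and highest core levels, and running wheel females at the highest slopes and lowest core levels (-0.473 to -0.140).

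Genotype was compared to ask whether loss of Snord116 or the Ctg transgene is seen in the cortex at ZT6. No subunit gene was called in any genotype comparison. Psmb3, a beta ring subunit, spanned 23.5 to 50.4 CPM in WT/WT (median 31.3), 24.7 to 53.8 in HET/WT (median 34.7), 23.2 to 52.7 in WT/TG (median 31.7) and 21.7 to 53.2 in HET/TG (median 32.5), so the 4 ranges overlapped almost entirely. It had the smallest p in HET/WT against WT/WT (0.09 ± 0.031, p 0.0033, adjusted p 0.580), followed by Psmd14 (0.08, p 0.0064). In that comparison edgeR called 0 of 38 (beside 0.0425% of all genes), 12 had an unadjusted p under 0.05, and the median difference was 0.05 beside 0.00 over all genes. No share of all genes at an unadjusted p under 0.05 is given here, for this or any other comparison. Members varied together within groups, so counts at that unadjusted threshold were not read as an effect.

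HET/TG against HET/WT, which shares the HET/WT libraries with HET/WT against WT/WT, also had 0 (beside 0.0106%), with 15 at an unadjusted p under 0.05 and a median of -0.05. Psmb3 (-0.10, p 0.0023, adjusted p 0.617) and Psmb5 (-0.13, p 0.0035) had the smallest p. WT/TG against WT/WT had 0 (beside 0.0159%; none at an unadjusted p under 0.05, Psmd7 and Psmd8 at 0.06 with p 0.0646 and 0.0689), and HET/TG against WT/WT had 0 (beside 0.0478%; 2 at an unadjusted p under 0.05, Psmd7 at 0.07 and Psmb10 at -0.09). The HET/WT effect was not shown to depend on the light cycle (0 called, beside 0% of all genes; 6 at an unadjusted p under 0.05, Psmd11 at -0.14 with p 0.00551 and Psmd2 at -0.13 with p 0.00586), the set (0 called, beside 0%; 1, Psmc6 at -0.14 with p 0.0102, followed by Psmd1 at 0.08 with p 0.0854) or sex (0 called, beside 0%; 3, Psmb4 at 0.18 with p 0.0102 and Psmb6 at 0.16 with p 0.0253). DESeq2 called 0 of the members in these 7 comparisons.

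Within groups the members varied together. After the model terms were removed, the median Pearson correlation between pairs of core genes was 0.30 over the 92 atlas libraries and 0.39 over the 126 libraries at ZT6. Pairs of regulatory genes had 0.24 and 0.27, and pairs of a core with a regulatory gene 0.21 and 0.25. Over all pairs of genes tested it was -0.002 and 0.004. The pairs share libraries, depth and scaling. The residual mean of the core correlated with the residual length slope at 0.11 in the atlas and -0.28 at ZT6, and that of the regulatory particle at 0.33 and 0.04.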

How the data were processed

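The authors deposited raw read counts, as whole numbers for each gene, in 1 table for the atlas and 1 for ZT6. The tools named in the submitters' processing notes are STAR, Trim Galore, limma and SAMtools, and the build is mm10. The counting tool, annotation and strand setting were not given in the sources used here, so overlapping genes (19 members overlap another gene on either strand) and genes with processed pseudogenes, such as Psmb5, Psmb6 and Psmb7, have uncertain counts. 1 sample had no column and was not analysed here. Groups came from the labels.

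Each table was fitted separately in R 4.3.3 with edgeR 4.0.16 (filterByExpr, TMM scaling, robust glmQLFit, glmQLFTest). P-values were adjusted by Benjamini-Hochberg across every gene tested, with a threshold of 0.05. The atlas model held sex and a 24 h cosine and sine. The ZT6 model held a mean per group, with contrasts weighted equally. Values are CPM scaled by TMM, and differences are log2 ± SE. The pipeline was tested on simulated data. The alternatives were DESeq2 1.42.0, RLE scaling, no filter, a replicate block, a length slope covariate, and libraries, times or replicates left out. Settings without a time of day, without the libraries of extreme length slope without the calorimetry males richest in ribosomal RNA or without the library of highest Psma8 were chosen after seeing the data, as were the sex contrasts within each set. The labels call the samples biological replicates and say nothing of litters.

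The members and gene lists were chosen with earlier results of these data known. Each planned comparison names the 8 members of smallest p among those past the threshold in each direction, or the 2 of smallest p where there were none. The rhythm adds the 4 largest and 4 smallest folds, the levels add the highest and lowest member of each role, and other lists give up to 4 genes by smallest p, with Nfe2l1 always. Paaf1 was not found by its symbol in the annotation. A gene of the ubiquitin list is not reported here. Same-numbered animals correlated weakly, at a mean of 0.0052 in the atlas and 0.0082 at ZT6, beside -0.0009 and -0.0027 for animals of other numbers. The numbers were not taken as pairs, and a replicate block was an alternative. No 2 libraries of a group differed by less than sampling noise (lowest chi-square per gene 2.87 in the atlas and 3.04 at ZT6).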

Additional observations from a re-analysis of the deposited data

Results flagged for a closer look

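The light cycle effect differed between the calorimetry and running wheel sets, by an interaction test, for 5 genes. The effect in calorimetry minus that in running wheel was -0.2314 on the log2 scale for Psma7, -0.2416 for Psmd10, -0.2095 for Psma5, -0.2174 for Psmb6 and -0.159 for Psma6. The male minus female difference at ZT6 differed between the sets for 32 of the 38 genes tested.

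Only ZT18 and ZT21 of the atlas, with 10 libraries each, were checked for a library far from the others. Each of the 37 genes tested was taken at each of these times, which gave 74 groups. In 3 of the 74 groups 1 library lay far from the others, where chance gives such a gap in about 1 in 20 groups. Groups of the same time share their libraries, so they are not independent. At ZT18 the highest library held 73.88 CPM of Psmb7 (a gap of 0.491 of the range) and 60.19 CPM of Psmd8 (0.546). At ZT21 the lowest library held 63.4 CPM of Psmd11 (0.562).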

How the results depend on the processing

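Of the counts of called members under other settings, 250 were within 1.5 times those reported and 27 were not. The 250 include counts of 0 that stayed at 0, as in the genotype comparisons, so they overstate the stability of comparisons with calls. The rhythm called 4 members in females alone, 5 in males alone, 10 without ZT3 and 7 without ZT15. For these and the other settings below, except the length slope covariate, the share of all genes called is not given here. A fall in calls was therefore not read as particular to the subunits. Without an expression filter, which tests more genes, the light cycle called 9 in calorimetry and 6 in calorimetry females. With the length slope as a covariate it called 8 in calorimetry, 1 in calorimetry females and 3 over both sets, and the set effect called 19 on 12:12 and 18 on 11:11 and the sex difference 18. Over all 18841 genes tested these fits called 2348, 902, 840, 5430, 6181 and 5306. Under that covariate the difference turned to 0.0552 for Psmd5 (set, 12:12), 0.0272 for Psmd1 (set, 11:11), and 0.0445 for Psmd11 and 0.0504 for Psmd5 (sex, ZT6). DESeq2 called 1 in running wheel females. The cause of these changes was not tested. Per kilobase of coding transcript the median levels were 34.9 (core) and 34.4 (regulatory). Leaving out each replicate number in turn gave 9 to 17 calls for the rhythm (9 without number 1 and 10 without number 3), 14 to 17 for the atlas sex difference, 9 to 13 for the light cycle in calorimetry, 1 to 10 in its females and 3 to 8 in its males, 5 to 9 over both sets, 1 to 5 for the interaction, 27 to 31 and 27 to 29 for the set on 12:12 and 11:11, and 28 to 32 for sex at ZT6. It gave 0 for the genotype comparisons, the light cycle in the running wheel set and the sex difference in rhythm. Same-numbered animals correlated at 0.0052 and 0.0082 on average, each best with its own number for 25 of 92 and 43 of 126 libraries. Whether those numbers of libraries exceed chance was not tested, so a weak link by number remains possible. With the replicate block 17 members were called for the rhythm, 18 for the atlas sex difference and 14 for the light cycle in calorimetry, and it changed the call of none of the 87 named results. Psmb8, Psmb9, Psma8 and Psmb11 are limited by depth.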
